A study of Mus musculus with 12 samples.

Results

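Myc and 34 genes of ribosome biogenesis were followed in hematopoietic stem cells of 4 mouse genotypes. The 35 genes were taken by symbol from a given list of Myc, RNA polymerase I, treacle and nucleolar processing factors, and all 35 were among the 18546 genes of the deposited table. The cells were SLAM hematopoietic stem cells (CD150+CD48-Lin-Sca1+cKit+), the rare bone marrow cells that can rebuild the whole blood system, and they came from C57BL/6 mice of 10 to 12 weeks. There were 3 libraries each of wild type, NrasG12D/+ (1 allele of a Ras GTPase locked in its active state), Tet2+/- (1 allele lost of an enzyme that oxidises 5-methylcytosine in DNA) and NrasG12D/+;Tet2+/-, called the compound mutant. How the Nras allele was switched on, and in which cells, is not given in the sources used here. Nor do they say whether libraries of 1 genotype came from separate animals, so p-values measure the spread between these libraries. These are bulk samples of sorted cells, in which fewer cells of a type and less RNA per cell cannot be told apart.

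Myc is a transcription factor that pairs with Max and binds E-box DNA, and raising ribosome production is among its best-known roles. Ribosome biogenesis starts in the nucleolus, where RNA polymerase I copies the ribosomal DNA into a long precursor RNA. Box C/D and box H/ACA ribonucleoproteins, guided by small nucleolar RNAs (snoRNAs), then modify that precursor, the small subunit processome folds and cuts it, and a separate set of factors assembles the large subunit. Adult stem cells are mostly quiescent and make protein slowly, and Myc is known to favour their exit from quiescence and the niche.

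Values are RPKM, the reads of a gene scaled to its length and to library size. Reads in genes ranged from 19205045 to 36890942 per library, and wild-type replicate 1 and NrasG12D/+ replicate 2 had the most genes at 0 reads (3824 and 3268). All 35 members reached 1 RPKM in at least 3 libraries and were among the 15478 genes tested. Xist and Ddx3y, which are not members, marked replicate 1 of every genotype and Tet2+/- replicate 3 as male and the other 7 libraries as female, so sex and genotype were not fully balanced. Every genotype held libraries of both sexes, so its libraries did not all come from a single animal. Whether libraries of the same sex came from separate animals is not shown by this. The targeted genes gave no separation of the labels at whole-gene level: Nras was 4.76 to 6.83 RPKM over the 12 libraries, and Tet2 was 4.93 to 4.98 in wild type and 4.09 to 5.23 in Tet2+/-. The part of Tet2 that the allele lacks is not given in the sources used here. All 8 stem cell gate markers had reads in every library. Markers of other cells were read too: the summed level over the 12 libraries was 33.3 to 49.9 RPKM for the 6 multipotent and myeloid progenitor markers listed, 24.2 to 57.3 for 6 megakaryocyte markers and 3.41 to 17.9 for the 5 erythroid markers listed. The sums were 0.584 to 7.05 for the 4 granulocyte and monocyte markers listed and 3.07 to 7.91 for 3 B lineage markers. They were 1.04 to 11.1 for 3 T and NK lineage markers and 7.3 to 12.1 for 3 stroma and endothelium markers. Of the progenitor markers Cd34, Flt3 and Prtn3 had reads in every library, Mpo stayed at or under 0.953 RPKM, and Elane had 0 reads in all libraries but the 3 of Tet2+/-, where it reached 5.8 RPKM. These sums serve to compare libraries and not lists, since the length behind each gene's RPKM differed in kind between genes, and their part in the members' values was not tested.

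No member passed an adjusted p of 0.05 (limma on log2 RPKM, Benjamini-Hochberg over all 15478 genes, two-sided) in any of 8 comparisons. The smallest adjusted p of the 280 member tests was 0.512, for Bop1 in the average effect of the Nras allele. Few genes of any kind passed: the share of all tested genes was 0.00646% in each of the 3 comparisons with wild type and in compound against Tet2+/-, and 0% in compound against NrasG12D/+. It was 0.0129% for the interaction (compound minus both single mutants plus wild type), 0.0323% for the Nras allele averaged over Tet2 genotypes and 0% for the Tet2 allele averaged over Nras genotypes. Under voom on the recovered reads, an alternative model for counts, the number of member calls was also 0.

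At an unadjusted p under 0.05, 2 of the 35 members (Tcof1 and Bop1) stood out between NrasG12D/+ and wild type, which is 5.71% of the members against 5.61% of all tested genes. No member did so between Tet2+/- and wild type, where the background was 3.35%. Between the compound mutant and wild type it was 1 member, Nop14, or 2.86% against 6.42%. Against NrasG12D/+, 1 compound-mutant member (Bop1) did so, 2.86% against 4.04%, and against Tet2+/-, 2 did so (Nhp2 and Nop14), 5.71% against 5.45%. For the interaction, 1 member (Tcof1) had such a p, with a background of 3.38%. The average over carriers of the Nras allele gave 5 members (Tcof1, Dkc1 and Nop14 with positive differences, Bop1 and Nhp2 with negative ones), 14.3% against 7.24%, while the average over Tet2 heterozygotes gave 1 (Bop1), with a background of 3.81%. The comparisons share libraries, so these counts are not independent of each other.

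The number of members whose 2 groups of 3 libraries did not overlap was near the background. It was 4 of 35 (11.4%) for NrasG12D/+ against wild type, where 9.7% of all tested genes did not overlap. The corresponding numbers were 3 (8.57%, background 9.23%) for Tet2+/- and 4 (11.4%, background 11.2%) for the compound mutant, both against wild type. They were 2 (5.71%, background 8.48%) for the compound mutant against NrasG12D/+ and 4 (11.4%, background 12.7%) against Tet2+/-.

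The members' median log2 difference from wild type was -0.04 in NrasG12D/+, -0.02 in Tet2+/- and -0.03 in the compound mutant, beside 0.01, 0.04 and 0.02 over all tested genes. Of the 35, 16, 14 and 17 had a positive difference in these comparisons (45.7%, 40% and 48.6%), so the signs were mixed. Among all tested genes the shares were 51.4%, 54.2% and 51.6%. The 95% intervals lay within a 2-fold change in either direction for 23 members in NrasG12D/+ (65.7%, against 39.4% of all tested genes), for 25 in Tet2+/- (71.4% against 40.6%) and for 21 in the compound mutant (60.0% against 39.1%). A change of 2-fold or more is therefore outside the interval for most members, while a change of 1.5-fold is outside it for only 10, 13 and 14 of them. The tested genes were not matched to the members in level or reads, so these shares do not show that the members were unusually steady. Added up, for comparison between genotypes only, the members' RPKM came to 655 ± 31.8 in wild type, 649 ± 28.2 in NrasG12D/+, 644 ± 29.8 in Tet2+/- and 666 ± 10.3 in the compound mutant (SD, n = 3 each). The means differed by less than the SDs of wild type, NrasG12D/+ and Tet2+/-. The compound mutant differed from each of them by more than its own, smaller SD, and these sums were not tested.

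**Figure D1:**
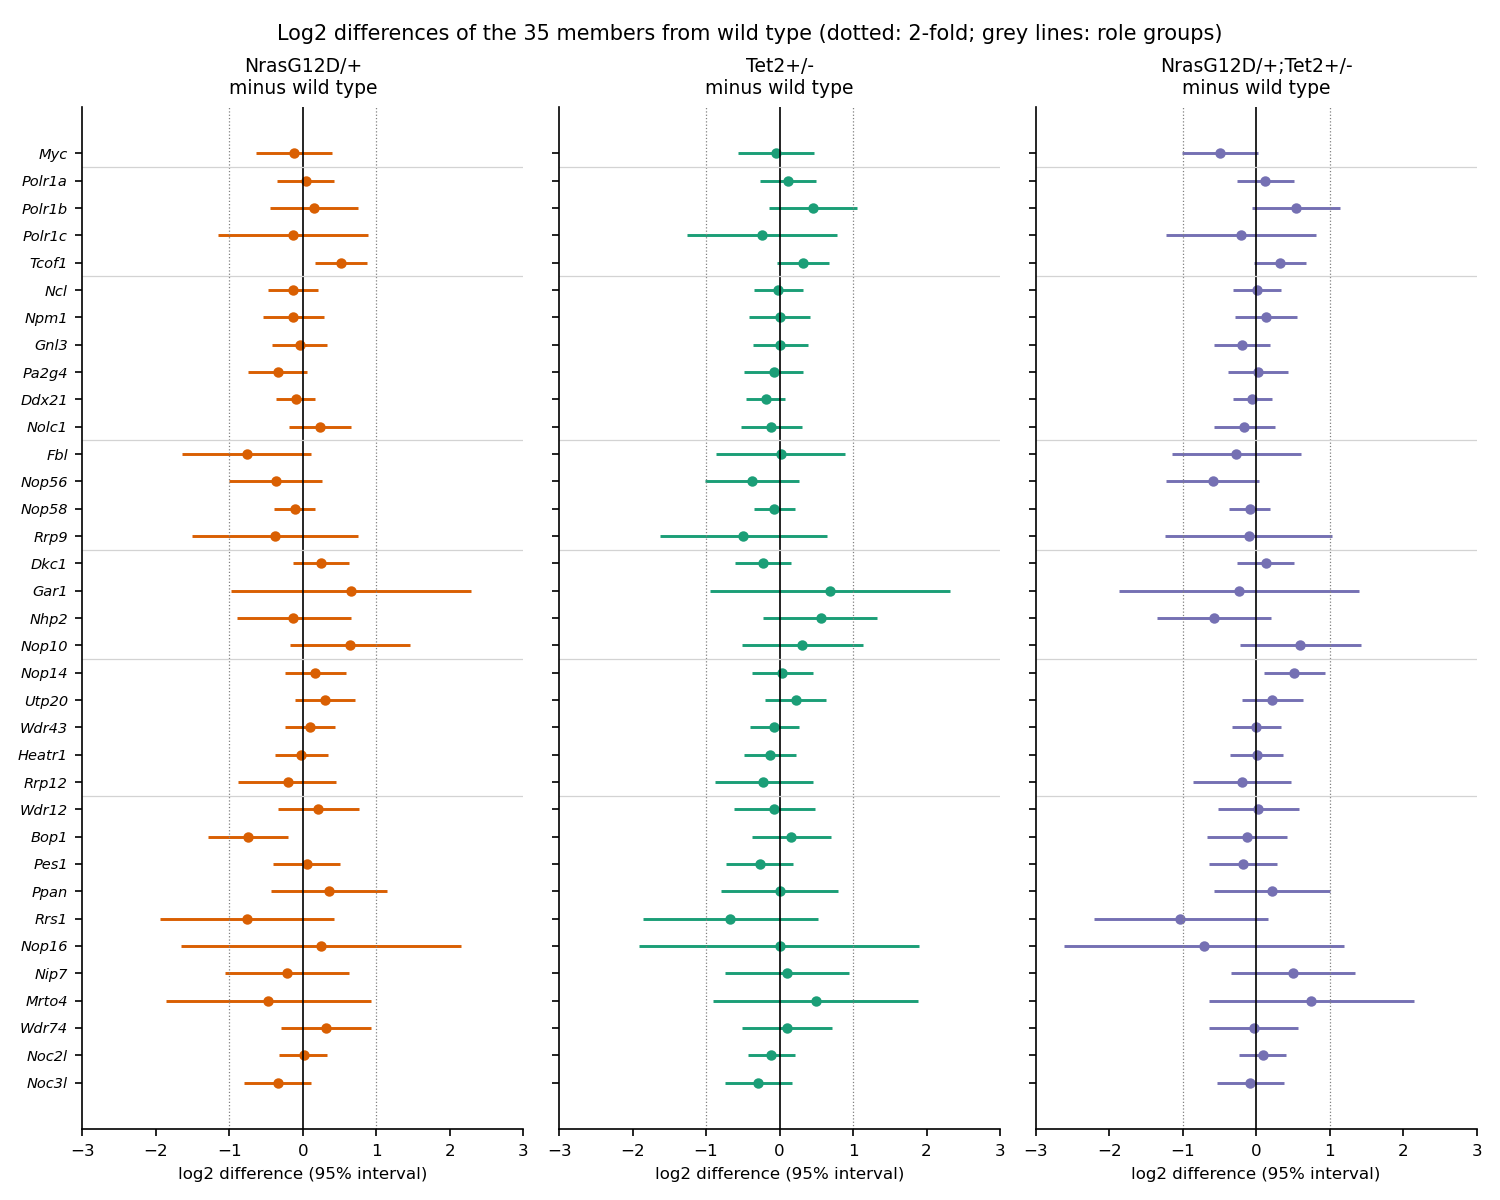
Log2 difference of each of the 35 members (rows, in role groups) from wild type in NrasG12D/+, Tet2+/- and the compound mutant. Points are limma estimates and lines 95% intervals; the intervals of Tcof1 and Bop1 in NrasG12D/+ and of Nop14 in the compound mutant leave 0, and none of the 35 passed the adjusted threshold in any panel.

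Myc itself was 7.24, 5.32 and 8.66 RPKM in wild-type replicates 1 to 3, 5.54, 6.47 and 7.31 in NrasG12D/+, 7.74, 6.93 and 5.62 in Tet2+/- and 3.99, 5.4 and 5.61 in the compound mutant. The compound-mutant libraries lay below all 3 Tet2+/- libraries but overlapped with wild type and NrasG12D/+. The log2 difference was -0.49 ± 0.23 (SE, 95% interval -1.01 to 0.03) between the compound mutant and wild type and -0.44 ± 0.23 between the compound mutant and Tet2+/-, with adjusted p of 0.767 and 0.928 in limma. In the single mutants it was -0.12 ± 0.23 for NrasG12D/+ and -0.05 ± 0.23 for Tet2+/-. Myc was read by 1231 to 4361 reads per library, so counting error was small beside the spread between libraries.

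**Figure D2:**
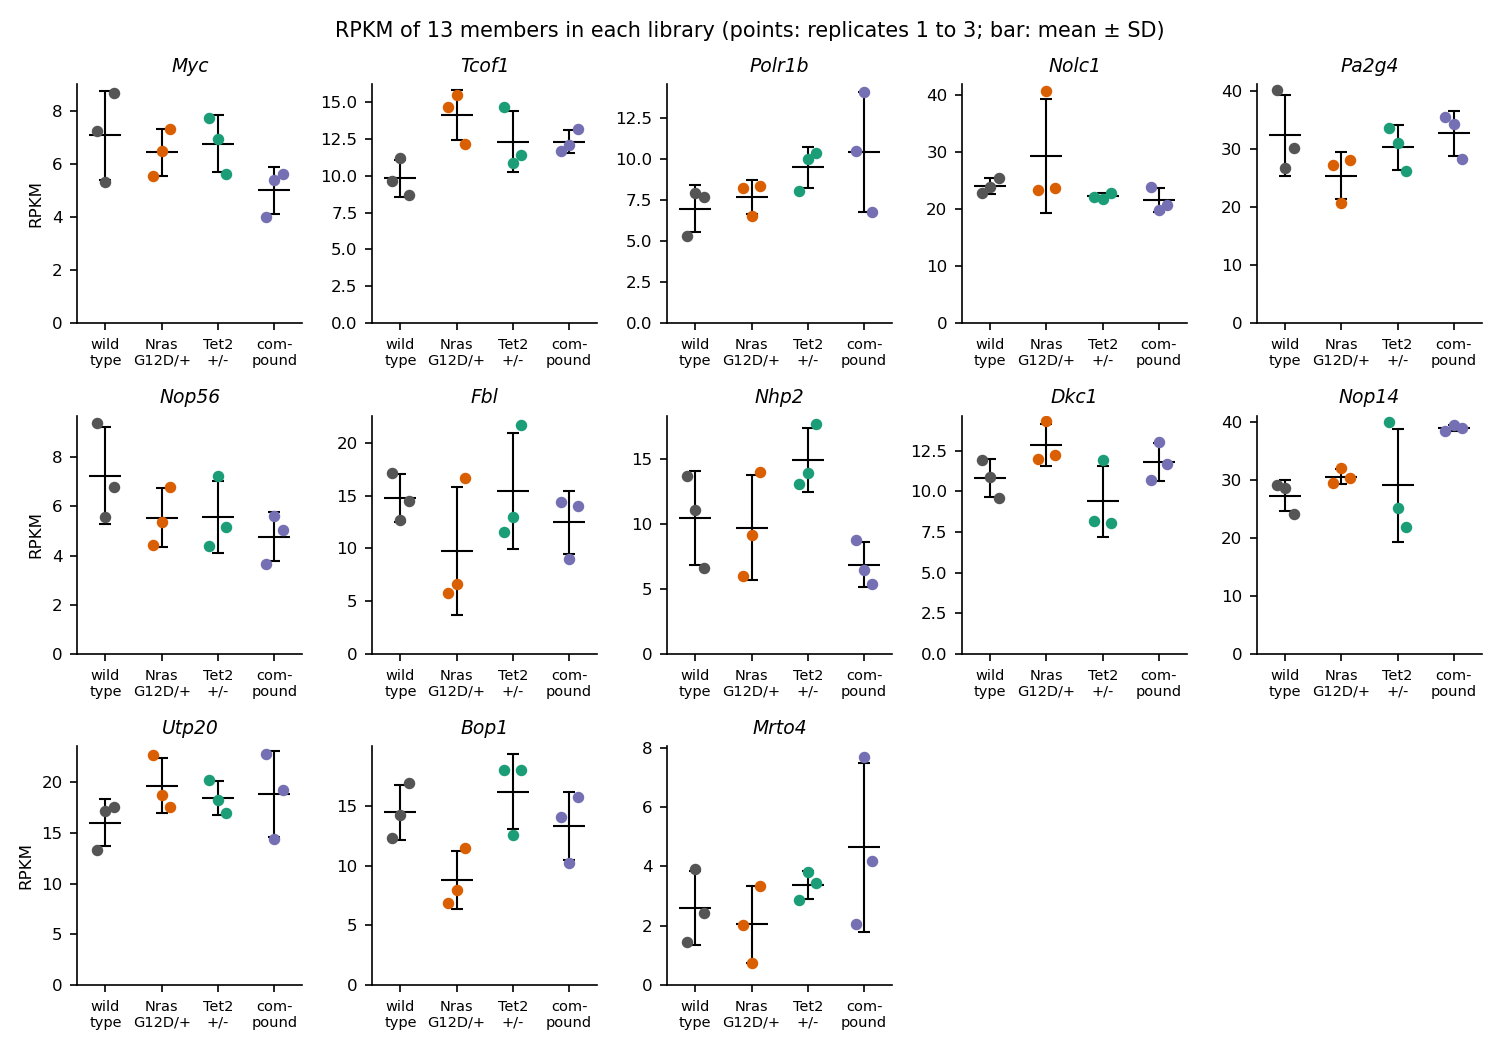
RPKM (vertical axes, from 0) of Myc and of the 12 members with the smallest p in their role groups, by genotype; points are the 3 libraries and bars mean ± SD. The 3 compound-mutant values of Nop14 lie close together (38.4 to 39.5 RPKM), and 1 NrasG12D/+ value of Nolc1 (40.8 RPKM) lies apart from the other 11.

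Promoters of 28 members were found in RefSeq's table (GRCm38.p6, 250 bases before to 50 after the gene start) and searched for CACGTG, the canonical E-box, which reads the same on both strands. It was present in 3 of the 28 (10.7%), in 8.09% of all 27025 genes in that table and in 12% of the 8796 tested genes found there. The 3 members were Pes1, Wdr43 and Utp20, and their matches lay just inside the transcribed side of the RefSeq start, at positions 3, 18 and 38. The GENCODE M21 annotation starts Wdr43 further upstream, at chr17:71615895, so by that annotation its match lies deeper inside the gene. The following stretches of 30 bases, with the E-box in capitals, show the match in each, read on the gene's strand at chr11:3963965-3963994, chr17:71616220-71616249 and chr10:88826765-88826794.
Pes1: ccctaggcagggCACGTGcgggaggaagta
Wdr43: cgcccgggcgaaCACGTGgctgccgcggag
Utp20: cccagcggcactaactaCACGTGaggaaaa
The log2 differences of these 3 genes between the compound mutant and wild type were -0.18 for Pes1, 0.00 for Wdr43 and 0.22 for Utp20, with no common sign.

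Among the RNA polymerase I genes, Tcof1, which encodes the nucleolar protein treacle that supports transcription of ribosomal DNA, had the smallest p of all members between NrasG12D/+ and wild type. It was 9.67, 11.2 and 8.70 RPKM in wild type, 14.7, 15.5 and 12.2 in NrasG12D/+, 14.7, 10.9 and 11.4 in Tet2+/- and 11.7, 12.1 and 13.2 in the compound mutant. All NrasG12D/+ and all compound-mutant libraries lay above all wild-type libraries, and Tet2+/- overlapped with every group. Against wild type the log2 difference was 0.52 ± 0.16 for NrasG12D/+ (95% interval 0.17 to 0.87, adjusted p = 0.86 in limma) and 0.33 ± 0.16 for the compound mutant (adjusted p = 0.767). The interaction was -0.51 ± 0.23, with an adjusted p of 0.996 in limma.

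The other genes of this group encode subunits of RNA polymerase I. Polr1b, the gene of the second-largest subunit, was 5.34, 7.92 and 7.71 RPKM in wild type, 8.22, 6.53 and 8.36 in NrasG12D/+, 8.09, 10.0 and 10.4 in Tet2+/- and 10.5, 14.1 and 6.76 in the compound mutant. Its Tet2+/- libraries lay above the wild-type libraries, by 0.46 ± 0.27 on the log2 scale (adjusted p = 1 in limma), while the compound mutant held both the highest value and one within the wild-type range. Polr1a, the gene of the largest subunit, ranged from 24.4 to 40.8 RPKM and Polr1c, whose product is shared with RNA polymerase III, from 1.96 to 6.08, with overlapping genotypes in both.

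The nucleolar organisers and growth factors had the lowest median SD within genotypes of the 6 multi-gene groups, 0.224 on the log2 scale. Ncl (nucleolin) ranged from 44.2 to 64.6 RPKM, Npm1 (nucleophosmin) from 26.6 to 48.5, Ddx21 (an RNA helicase) from 42.6 to 58.0 and Gnl3 (the GTPase nucleostemin) from 33.6 to 54.0, with no genotype apart. The 95% interval of Ddx21 between the compound mutant and wild type ran from -0.31 to 0.21 on the log2 scale and that of Ncl from -0.32 to 0.34.

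Nolc1, which encodes a chaperone of small nucleolar ribonucleoproteins, was 22.8, 23.8 and 25.5 RPKM in wild type, 23.4, 40.8 and 23.7 in NrasG12D/+, 22.1, 21.8 and 22.9 in Tet2+/- and 23.9, 19.9 and 20.8 in the compound mutant. A single library, NrasG12D/+ replicate 2, was high, and the other 11 lay between 19.9 and 25.5. The log2 difference of NrasG12D/+ from wild type, 0.23 ± 0.19, was -0.03 without that library.

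Pa2g4, which encodes a growth-regulating RNA-binding protein, was 40.1, 26.7 and 30.2 RPKM in wild type, 27.2, 20.7 and 28.1 in NrasG12D/+, 33.6, 31.0 and 26.1 in Tet2+/- and 35.4, 34.2 and 28.3 in the compound mutant. The compound-mutant libraries lay above the NrasG12D/+ libraries, by 0.37 ± 0.18 on the log2 scale (adjusted p = 1 in limma), and both overlapped with wild type.

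Box C/D ribonucleoproteins place methyl groups on ribosomal RNA. The difference of NrasG12D/+ from wild type was negative for all 4 members of this group, and none had a p under 0.05. It ran from -0.11 (Nop58) to -0.76 (Fbl), with a median of -0.38. Over all tested genes 51.4% had a positive sign, and the shared sign of these 4 was not tested. Nop56, a scaffold protein of the particle, was 9.40, 5.56 and 6.78 RPKM in wild type, 4.44, 5.38 and 6.80 in NrasG12D/+, 4.38, 7.21 and 5.15 in Tet2+/- and 3.67, 5.59 and 5.04 in the compound mutant. Wild-type replicate 1 was the highest library and the genotypes overlapped. Its log2 difference between the compound mutant and wild type was -0.59 ± 0.28 (95% interval -1.22 to 0.04, adjusted p = 0.767 in limma).

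Fbl, the gene of the methyltransferase fibrillarin, was 17.2, 12.7 and 14.5 RPKM in wild type, 5.81, 6.67 and 16.7 in NrasG12D/+, 11.6, 13 and 21.7 in Tet2+/- and 14.4, 9.05 and 14 in the compound mutant. NrasG12D/+ replicates 1 and 2 were the lowest of the 12 libraries and replicate 3 lay inside the wild-type range. The log2 difference of -0.76 ± 0.39 (adjusted p = 0.87 in limma) was -0.46 without wild-type replicate 1 and NrasG12D/+ replicate 2. Nop58, the partner scaffold, ranged only from 9.26 to 11.7 RPKM, the smallest spread of all members, while Rrp9, a protein of the U3 particle, ranged from 1.25 to 5.17.

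Box H/ACA ribonucleoproteins convert uridine to pseudouridine, and the same 4 proteins also belong to telomerase. Nhp2 was 13.7, 11.1 and 6.59 RPKM in wild type, 5.99, 9.11 and 14 in NrasG12D/+, 13.1, 13.9 and 17.7 in Tet2+/- and 8.77, 6.44 and 5.39 in the compound mutant. The compound-mutant libraries lay below the Tet2+/- libraries, and wild type and NrasG12D/+ overlapped with both. Between compound and Tet2+/- the log2 difference was -1.13 ± 0.35 (95% interval -1.91 to -0.36, adjusted p = 0.758 in limma), and it was -0.57 ± 0.35 between compound and wild type. Nhp2 shares 44 exon bases with Rmnd5b on the opposite strand.

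Dkc1, the X-linked gene of the pseudouridine synthase dyskerin, was 11.9, 10.9 and 9.59 RPKM in wild type, 12.0, 14.3 and 12.2 in NrasG12D/+, 8.20, 11.9 and 8.06 in Tet2+/- and 10.7, 13 and 11.7 in the compound mutant. NrasG12D/+ lay above wild type in every library, by 0.25 ± 0.17 on the log2 scale. The 2 low Tet2+/- libraries were the male ones, so within Tet2+/- the low values and sex cannot be told apart. The difference between compound and Tet2+/- was 0.35 ± 0.17 and, with sex as a covariate, 0.30. Gar1 (0.523 to 5.44 RPKM, from 68 to 611 reads) had a log2 difference of 0.65 ± 0.73 in NrasG12D/+, 0.68 ± 0.73 in Tet2+/- and -0.23 ± 0.73 in the compound mutant against wild type. Nop10 (7.17 to 22.2 RPKM) had 0.64 ± 0.37, 0.31 ± 0.37 and 0.60 ± 0.37, with wild-type replicate 1 the lowest library and the genotypes overlapping.

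In the small subunit processome, Nop14 was 29.1, 28.6 and 24.2 RPKM in wild type, 29.5, 32.0 and 30.3 in NrasG12D/+, 40.1, 25.2 and 21.9 in Tet2+/- and 38.4, 39.5 and 39.0 in the compound mutant. The compound-mutant libraries were nearly equal and lay above all wild-type and NrasG12D/+ libraries, while Tet2+/- replicate 1 alone was higher still. The log2 difference between the compound mutant and wild type was 0.52 ± 0.19 (95% interval 0.10 to 0.94, adjusted p = 0.754 in limma). Between the compound mutant and Tet2+/- it was 0.47 ± 0.19 (adjusted p = 0.871 in limma), and 0.73 (adjusted p = 0.348) without Tet2+/- replicate 1. An antisense gene, Gm15522, shares 144 exon bases with Nop14.

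Utp20, a large scaffold protein of the processome, was 13.3, 17.1 and 17.5 RPKM in wild type, 22.7, 18.7 and 17.5 in NrasG12D/+, 20.2, 18.2 and 16.9 in Tet2+/- and 22.8, 14.4 and 19.2 in the compound mutant. Wild-type replicate 1 was lowest, and the genotypes overlapped. Wdr43 (45.9 to 68.7 RPKM) and Heatr1 (18.8 to 29.6), which link the processome to transcription of the precursor, and Rrp12 (6.5 to 12.6), which takes part in export of the subunit, showed no genotype apart.

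Among the 11 large subunit factors, Bop1, which joins Pes1 and Wdr12 in the PeBoW complex, was 12.3, 14.2 and 16.9 RPKM in wild type, 6.83, 7.95 and 11.5 in NrasG12D/+, 18, 12.6 and 18 in Tet2+/- and 14.1, 10.2 and 15.7 in the compound mutant. The NrasG12D/+ libraries lay below all wild-type and Tet2+/- libraries, and the compound mutant overlapped with all groups. The log2 difference was -0.75 ± 0.24 between NrasG12D/+ and wild type (95% interval -1.29 to -0.21, adjusted p = 0.86 in limma). It was 0.62 ± 0.24 between the compound mutant and NrasG12D/+ and -0.13 ± 0.24 between the compound mutant and wild type. The interaction, 0.47 ± 0.34, had an adjusted p of 0.996 in limma, so a difference of the Nras effect between Tet2 genotypes was not shown. For the partners in the same complex the difference of NrasG12D/+ from wild type was 0.05 for Pes1 and 0.21 for Wdr12, and the difference between partners was not tested.

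Mrto4, which holds the place of a ribosomal stalk protein during assembly, was 1.46, 3.91 and 2.42 RPKM in wild type, 2.03, 0.758 and 3.33 in NrasG12D/+, 2.88, 3.82 and 3.43 in Tet2+/- and 2.05, 7.69 and 4.18 in the compound mutant. A single compound-mutant library was highest and the groups overlapped. Its reads could be split with 2 annotated pseudogenes of its name. Rrs1, which brings in the 5S ribonucleoprotein, was 11.6, 9.03 and 10.5 RPKM in wild type, 9.89, 3.09 and 7.41 in NrasG12D/+, 6.37, 7.29 and 5.92 in Tet2+/- and 2.11, 6.97 and 8.89 in the compound mutant. All Tet2+/- and all compound-mutant libraries lay below wild type, and 1 NrasG12D/+ library lay inside the wild-type range. The log2 differences from wild type were -0.76 ± 0.53, -0.67 ± 0.53 and -1.03 ± 0.53 in NrasG12D/+, Tet2+/- and the compound mutant, and each 95% interval held 0. The remaining factors (Ppan, Nop16, Nip7, Wdr74, Noc2l and Noc3l) ranged from the 0.810 RPKM of Nop16 to the 51.0 of Noc2l, with the largest absolute difference from wild type at -0.71 for Nop16 in the compound mutant.

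The order of the members by level depended on the gene length used. For 59.6% of the 12191 genes whose transcripts share bases, the length behind the deposited RPKM equalled the exon lengths of all annotated GENCODE M21 transcripts added together, to within 1 base, whereas it equalled the union of the exons for 0.295%. For the members, the deposited length was 0.275 (Fbl) to 5.37 (Myc) times the union of exons. It equalled the summed exons for 19 of the 35 members, and 16 of these have transcripts that share bases. In the others, Nop10, Rrs1 and Noc3l, the summed and union lengths are the same. The deposited length matched neither length for 16 members, among them Myc (14581 bases) and Fbl (1159 bases). For the 16 that matched neither, the reads may have been counted over other exons than the union taken here. Their levels and ranks per union length are therefore uncertain. Differences between genotypes are unaffected, since 1 length applies to all libraries, but levels of different genes on the deposited scale cannot be set side by side, and a sum over genes is comparable only between libraries. Per union exon length, Npm1 (87.9 RPKM), Noc2l (84.1) and Ncl (75.5) had the highest mean levels over the 12 libraries. Fbl (3.6), whose deposited length matched neither, had the lowest. Myc, with the same mismatch, stood at 33.8 RPKM on this scale, ninth of 35, against 6.32 RPKM and rank 27 as deposited. Because total RNA was sequenced, reads of introns and of snoRNAs can add to either scale: 7 members (Nop56, Nop58, Gnl3, Ncl, Wdr43, Ppan and Dkc1) hold 21 annotated snoRNA genes, and 13 members share exon bases with a gene on the opposite strand.

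**Figure D3:**
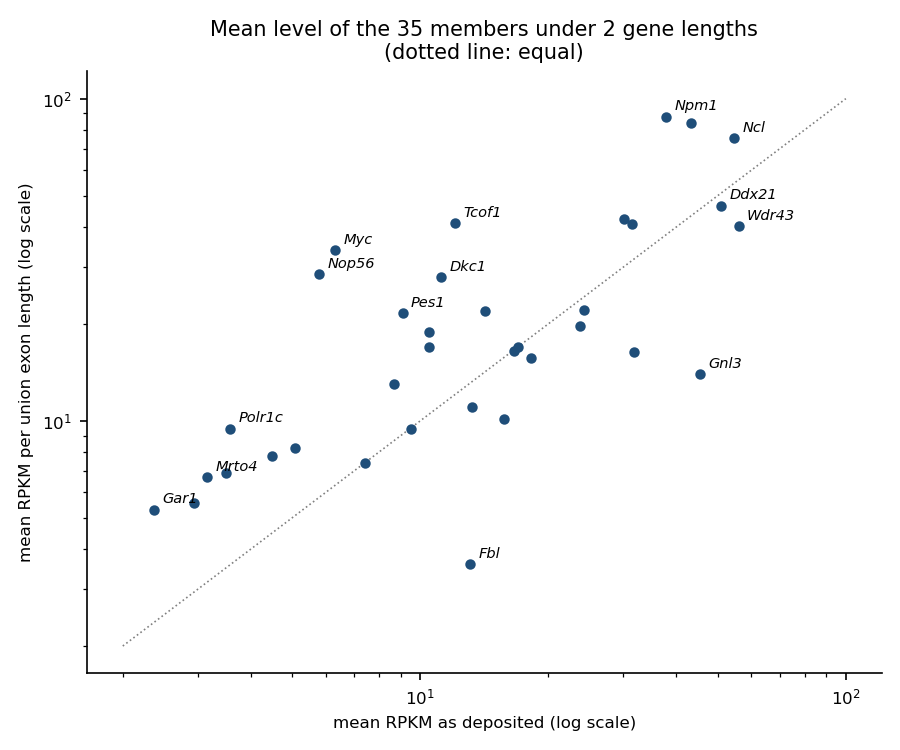
Mean RPKM over 12 libraries of each member as deposited (horizontal, log scale) and per union exon length (vertical, log scale). Members above the dotted line of equality, led by Myc and Nop56, had a deposited length longer than the union of their exons, and those below it, such as Fbl and Gnl3, a shorter one.

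Members differed in how evenly they were measured. The SD within genotypes, on the log2 scale, had a median of 0.271 over the members and 0.488 over all tested genes, which were not matched to the members in level or reads. Among the members it ran from 0.113 for Nop58 to 1.16 for Nop16. The 23 members with a mean of at least 1000 reads per library had a median SD of 0.232, and the 12 members with fewer reads one of 0.552. Gar1, Nop16, Mrto4 and Rrs1, with SDs of 0.944, 1.16, 0.812 and 0.717, were among the 12. The interval of Nop16 between NrasG12D/+ and wild type, for example, ran from -1.66 to 2.15 on the log2 scale.

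**Figure D4:**
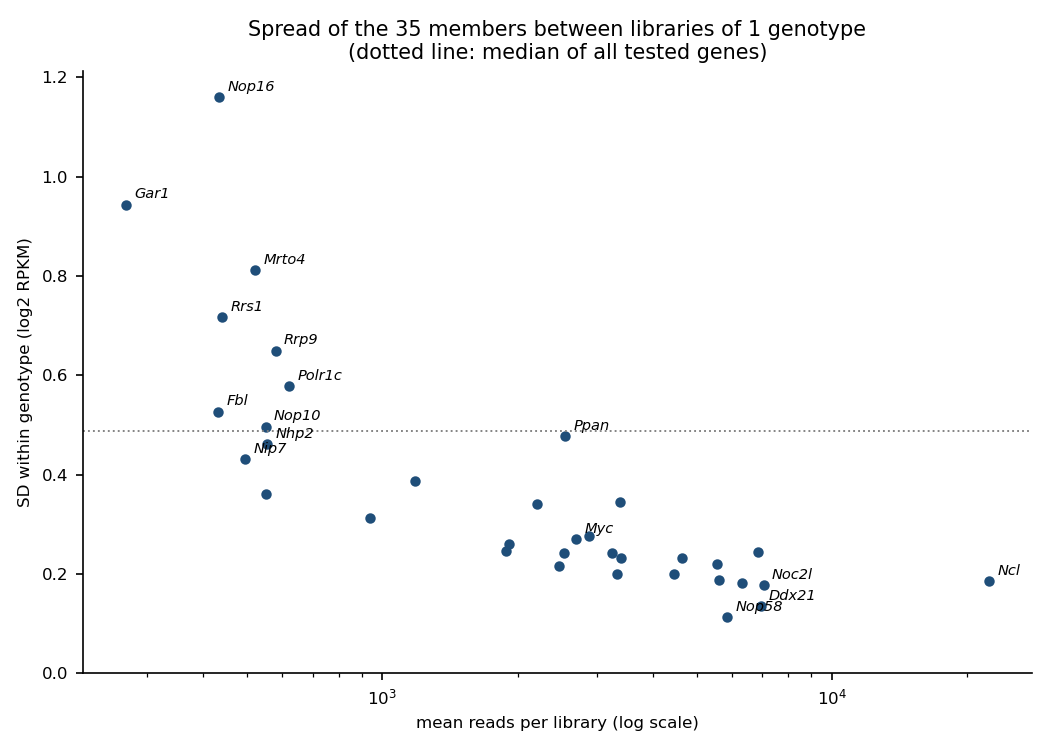
SD of log2 RPKM within genotypes (vertical) against mean reads per library (horizontal, log scale) for the 35 members; the dotted line is the median of all tested genes, 0.488. All 8 members above the line are among the 12 with a mean under 1000 reads.

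The wider pathway gave no calls either. A further 94 tested genes of RNA polymerase I, small subunit and large subunit assembly had 0 calls in all 8 comparisons, and medians of -0.01, -0.03 and 0.00 for NrasG12D/+, Tet2+/- and the compound mutant against wild type. At an unadjusted p under 0.05 the numbers were 2, 5 and 4 of 94, or 2.13%, 5.32% and 4.26%, beside 5.61%, 3.35% and 6.42% of all tested genes, so the single genes that follow are descriptions. Taf1b, a subunit of the factor that loads RNA polymerase I onto ribosomal DNA, had the smallest p among them against wild type in the compound mutant. It was 9.98, 19.8 and 16 RPKM in wild type, 32.1, 22.1 and 20.5 in NrasG12D/+, 30.5, 20.6 and 23.0 in Tet2+/- and 31.2, 25.7 and 23.0 in the compound mutant. Every mutant library exceeded every wild-type library, with log2 differences of 0.73 ± 0.27, 0.73 ± 0.27 and 0.85 ± 0.27 and a smallest adjusted p of 0.754 in limma. The 3 differences share the wild-type libraries. Taf1a, of the same factor, had differences of -0.86, -0.32 and -0.46.

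In the assembly lists, Nop2, an RNA methyltransferase of the large subunit, was 39.2, 26.6 and 30.7 RPKM in wild type, 30.1, 19.6 and 32.6 in NrasG12D/+, 18.2, 24.5 and 24.5 in Tet2+/- and 22.1, 20.4 and 21.7 in the compound mutant. All Tet2+/- and compound-mutant libraries lay below wild type, while NrasG12D/+ overlapped with it. The log2 differences from wild type were -0.25 ± 0.21, -0.52 ± 0.21 and -0.57 ± 0.21 in NrasG12D/+, Tet2+/- and the compound mutant (smallest adjusted p = 0.754 in limma). Sdad1 had differences of -0.54 ± 0.19, -0.40 ± 0.19 and -0.08 ± 0.19 in the same order, and both single mutants lay below wild type in every library. Utp14a had -0.06, -0.40 and -0.14 (SE 0.16 each) and Wdr75 -0.16, -0.75 and -0.01 (SE 0.30 each), with the Tet2+/- libraries of both below wild type. None of these passed the adjusted threshold.

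Mycn, the Myc paralog that can stand in for Myc in stem cells, was 37.7, 38.1 and 52.1 RPKM in wild type, 26.8, 35.1 and 47.2 in NrasG12D/+, 47.9, 40 and 44.9 in Tet2+/- and 24.8, 36.1 and 26.7 in the compound mutant. The compound-mutant libraries lay below all wild-type and all Tet2+/- libraries, with log2 differences of -0.55 ± 0.22 and -0.62 ± 0.22 (adjusted p = 0.759 and 0.824 in limma). Per union exon length, Mycn was 75.8 ± 14.5 RPKM and Myc 37.8 ± 8.95 in wild type, against 51.9 ± 10.8 and 26.8 ± 4.71 in the compound mutant (SD, n = 3 each), so the mean of Mycn was the higher in both. The deposited length of Myc matched neither its union nor its summed exons, so its level on this scale is uncertain. Zbtb17, which encodes the Myc partner Miz-1, was 3.04, 3.04 and 2.93 RPKM in wild type and 3.51 to 6.48 in the 9 mutant libraries, which all lay above wild type. Its log2 differences were 0.70 ± 0.23, 0.40 ± 0.23 and 0.41 ± 0.23 in NrasG12D/+, Tet2+/- and the compound mutant (smallest adjusted p = 0.797 in limma). Max, the obligate partner, had -0.32 ± 0.24, -0.32 ± 0.24 and -0.10 ± 0.24. The Myc network list had 0 calls among 12 tested genes in every comparison. At an unadjusted p under 0.05 against wild type it had 1 gene in NrasG12D/+, 0 in Tet2+/- and 1 in the compound mutant. The shares of all tested genes were 5.61%, 3.35% and 6.42%. Zbtb17 and Mycn were named because they had the smallest p of the list, so their values are descriptions.

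Of 24 Myc targets outside the ribosome none was called in any comparison, and their median difference from wild type was -0.05, -0.10 and 0.01 in NrasG12D/+, Tet2+/- and the compound mutant. At an unadjusted p under 0.05 there were 0 in NrasG12D/+, 1 up in Tet2+/-, and 1 up and 1 down in the compound mutant. The shares of all tested genes were 5.61%, 3.35% and 6.42%. The 2 genes that follow had the smallest p of the list and are descriptions. C1qbp, a mitochondrial matrix protein, was 23.5, 24.3 and 30.2 RPKM in wild type, 20.4, 19.8 and 25.8 in NrasG12D/+, 25.4, 17.9 and 17.9 in Tet2+/- and 15.8, 17.8 and 15.4 in the compound mutant. The compound-mutant libraries lay below all the others. The log2 differences from wild type were -0.24 ± 0.17, -0.36 ± 0.17 and -0.66 ± 0.17, the last with an adjusted p of 0.726 in limma. Shmt2, of mitochondrial one-carbon metabolism, had differences of 0.01, 0.49 and 0.47 (SE 0.20 each) in the same order.

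Genes of mitosis were measured beside the members because cell growth and division are usually coupled. The level of a list was taken in each library as the median over its genes of the log2 RPKM minus the gene's mean. For the 35 members it lay between -0.10 and 0.13 in the 12 libraries, and the genotypes overlapped. Over all tested genes the same level lay between -0.07 (wild-type replicate 1) and 0.12 (NrasG12D/+ replicate 3). For 20 cell cycle genes it was -0.23 ± 0.32 in wild type, 0.39 ± 0.09 in NrasG12D/+, -0.38 ± 0.05 in Tet2+/- and 0.42 ± 0.12 in the compound mutant (SD, n = 3 each), and every library with the Nras allele lay above every library without it. Averaged over Tet2 genotypes, the Nras allele went with a median log2 difference of 0.72 in the cell cycle genes, positive in 20 of 20, beside 0.01 in the members, positive in 19 of 35. Over all tested genes the median was -0.01, and 48.9% were positive. Of the cell cycle genes 1 passed the adjusted threshold: Top2a, the topoisomerase of dividing cells, rose by 0.76 ± 0.09 (adjusted p = 0.0376 in limma). Its difference stayed between 0.71 and 0.83 over 22 alternatives, but the call was lost in 13 of them, among them 10 of the 12 that leave out 1 library (highest adjusted p = 0.144, without Tet2+/- replicate 3). The cell cycle list was chosen with these results known, so its direction is no independent evidence, and the difference between the lists was not tested.

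Between libraries with and without the Nras allele, 1 of 8 gate markers (Fgd5) and 1 of 6 megakaryocyte markers (Pf4) lay apart. Of all 15478 tested genes, 71 lay wholly above and 60 wholly below in libraries with the allele. No marker of either list passed the adjusted threshold, and their part in the cell cycle and member values was not tested. The summed level of the 8 gate markers was 167 to 211 RPKM in NrasG12D/+ and 176 to 207 in the compound mutant, beside 189 to 224 in wild type and 219 to 228 in Tet2+/-. For the Nras allele average the median log2 difference of the gate markers was -0.27, negative in 6 of 8, and 4 of 8 had an unadjusted p under 0.05 (50%, against 7.24% of all tested genes). Fgd5, a stem cell marker, was 11.4, 15.1 and 11.2 RPKM in wild type, 8.48, 9.92 and 5.60 in NrasG12D/+, 14.5, 12.9 and 12.5 in Tet2+/- and 6.64, 8.70 and 5.52 in the compound mutant. All 6 libraries with the Nras allele lay below the other 6, a difference of -0.82 ± 0.17 (adjusted p = 0.249 in limma). Ly6a, which encodes the gate antigen Sca1, had a difference of 0.73 ± 0.24 (adjusted p = 0.503 in limma).

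For the 6 megakaryocyte markers the summed level was 33.7 to 57.3 RPKM in NrasG12D/+ and 38.5 to 44.3 in the compound mutant, beside 25.3 to 36.0 in wild type and 24.2 to 32.3 in Tet2+/-. The median log2 difference for the Nras allele average was 0.81, positive in 5 of 6, with an unadjusted p under 0.05 for 2 of 6 (33.3%, against 7.24%). Pf4, a platelet chemokine, was 1.84, 2.57 and 2.71 RPKM in wild type, 5.28, 7.85 and 17.4 in NrasG12D/+ and 7.45, 10.6 and 7.38 in the compound mutant, while in Tet2+/- it had 0 reads in replicate 1 and stood at 2.65 and 2.81 RPKM in replicates 2 and 3. Every library with the Nras allele lay above every library without it (adjusted p = 0.638 in limma). Of the other megakaryocyte markers, Gp1bb and Ppbp had 0 reads in at least 1 library of every genotype. Itga2b differed by 0.54 ± 0.19 with the allele (adjusted p = 0.541 in limma), and its libraries overlapped. Mean Vwf was lower with the allele: 3.41 ± 1.88 and 3.31 ± 0.431 RPKM in NrasG12D/+ and the compound mutant. Without it, Vwf was 4.45 ± 0.819 in wild type and 4.40 ± 0.629 in Tet2+/- (SD, n = 3 each). Mean Gp9 was 11.6 RPKM in wild type, 11.3 in NrasG12D/+, 9.73 in Tet2+/- and 13.2 in the compound mutant. The summed progenitor markers were 39.4 to 39.9 RPKM in wild type, 33.3 to 38.1 in NrasG12D/+, 46.0 to 49.9 in Tet2+/- and 38.1 to 44.7 in the compound mutant, and the erythroid ones 12.2 to 17.0, 10.3 to 17.9, 4.69 to 10.8 and 3.41 to 14.3.

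**Figure D5:**
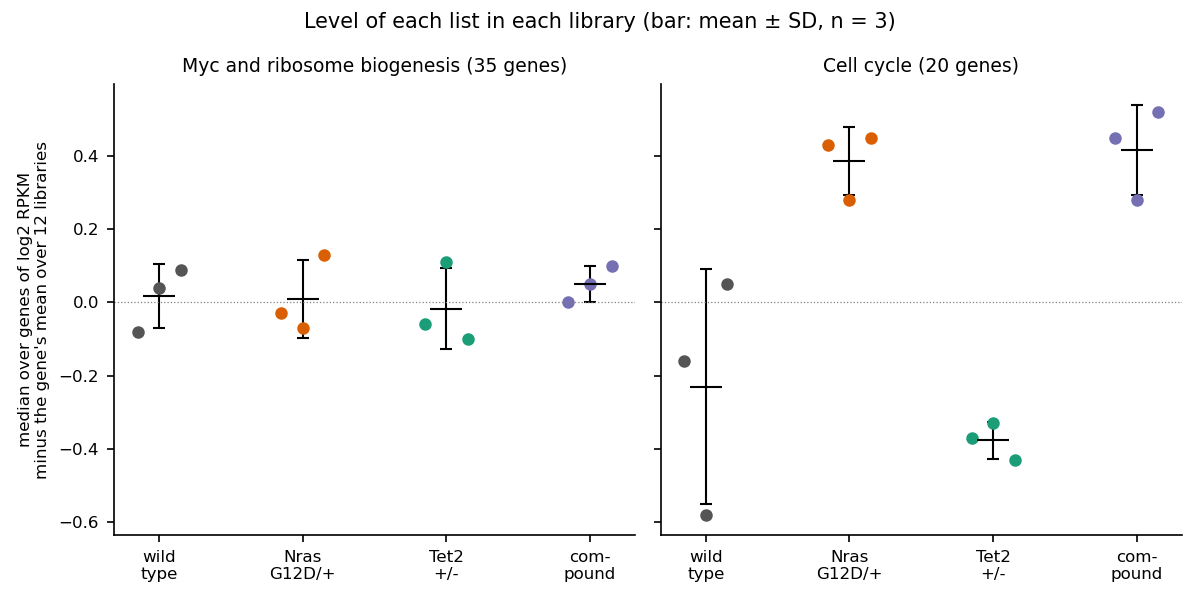
Level of the 35 members (left) and of 20 cell cycle genes (right) in each library, as the median log2 RPKM relative to each gene's mean over 12 libraries; bars are mean ± SD. Members stay between -0.10 and 0.13 in all genotypes, while the cell cycle genes lie at 0.28 to 0.52 in libraries with the Nras allele and at -0.58 to 0.05 in those without.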

How the data were processed

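RNA of 12 libraries, depleted of ribosomal and mitochondrial RNA, was made into stranded libraries per the labels' protocols. The authors deposited 1 table of log2 RPKM; per the submitters' processing notes CASAVA 1.8.2, TopHat2, edgeR and build mm10 were used, with no roles given, and the strand setting of counting is not given in the sources used here. The deposited values, of a unit classed as other, gave whole reads for 100% of genes (prior 0.25 reads, tolerance 0.001). Genes that reached 1 RPKM in 3 or more libraries were fitted with limma 3.58.1 (R 4.3.3, trend, 1 mean per genotype, 8 residual degrees of freedom) and Benjamini-Hochberg adjustment over 15478 genes; 3068 were left out. The method was tested on simulated data. The members and all lists were chosen with earlier results of these data known. Named members were Myc and, per role group, the 2 with the smallest p, plus any with p under 0.05 and groups apart. In each further list (RNA polymerase I, small subunit, large subunit, Myc network and Myc targets) the 2 genes with the smallest p against wild type were named. Other members and genes are given as ranges or were chosen after their values were seen (Max, Pes1, Wdr12, Rrs1, Fgd5, Ly6a, Pf4, Itga2b, Vwf, Gp9). The gene length check, the overlaps, the promoter search and sex (read from Xist and Ddx3y) were added after the data were seen. Libraries of 1 genotype differed beyond counting noise (mean chi-square 46.1 to 120), so none was a repeat reading of another. That cannot show whether they came from separate animals. Each library was counted as its own sample. Gene lengths and coordinates came from GENCODE M21 and promoters from RefSeq.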

Additional observations from a re-analysis of the deposited data

How the results depend on the processing

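The count of members called was 0 in every comparison under all alternatives run: no RPKM minimum, a pseudocount of 0.5 RPKM, libraries centred on their medians or quantile-normalized, only the groups compared, library quality weights, no variance trend, voom, a replicate block and each library left out, and, chosen after seeing the data, adjustment for sex and the removal of both wild-type replicate 1 and NrasG12D/+ replicate 2. The smallest adjusted p of any member was 0.225 (Nop14, Nras allele average, without Tet2+/- replicate 1), 0.377 (Bop1) with the replicate block and 0.564 (Bop1) with sex. Same-numbered libraries of different genotypes had correlated deviations of -0.125 to 0.136 (median 0.031), over 0.1 in 2 of 18 pairs. For differently numbered libraries they were -0.143 to 0.162 (median -0.017), over 0.1 in 1 of 36 pairs. Whether libraries with the same number were prepared together was not tested. The members' median difference between the compound mutant and NrasG12D/+ was -0.041 and ran from -0.041 to 0.051 with each library left out, the highest without NrasG12D/+ replicate 3. Calls over all tested genes were few and moved with single libraries: without wild-type replicate 2 they went from 1 to 18, 20 and 17 in NrasG12D/+, Tet2+/- and the compound mutant against wild type. Without NrasG12D/+ replicate 3 they went from 1 to 18 in NrasG12D/+ against wild type, from 0 to 12 in compound against NrasG12D/+ and from 5 to 17 for the Nras allele average, which gave 20 with voom. In compound against Tet2+/- the range was 0 to 8 and for the interaction 0 to 6. Of 65 differences of named members between 2 groups, 17 changed sign in at least 1 setting, none of them above 0.48 in absolute log2 size and none called. The 12 members with under 1000 mean reads had the wider spread within genotypes (median SD 0.552 against 0.232), but Bop1 and Wdr74 among them had SDs of 0.313 and 0.361, below the median of all tested genes, and the part of depth in this spread was not tested.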
